A study of Mus musculus with 6 samples.

Results

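The cells described here were the 59 microglia that the deposited cell table places in the subcluster Unknown MG, out of 416 microglia and 658 cells in all. They were taken as the cells with the class Microglia and the subtype Unknown MG, a subcluster known for its high counts of Gm10800, Gm37954 and Gm29055. These names are serial names that mouse annotation gives to transcribed loci whose function has not been worked out. To see what sets the cells apart besides those names, the rows Gm10800, Gm21833, Gm29055 and Gm37954 were removed, the remaining unique molecular identifier (UMI) counts were rescaled to CPM, which sets the total of every sum to the same number, and the cells were described against the 175 Homeostatic MG cells of the same libraries.

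All cells came from adult, tamoxifen-treated Nestin-CreERT2:R26-yfp mice, in which neural stem and progenitor cells (NSPCs) and their progeny carry YFP. The lateral subventricular zone (SVZ), the neurogenic niche beside the ventricle, was dissected from uninjured mice (2 libraries), 1 day after a photothrombotic cortical stroke (PT D1, 2 libraries) and 7 days after it (PT D7, 2 libraries). CD11b+CD45low microglia and YFP+ NSPCs were sorted into plates and sequenced by mCEL-Seq2, which reads the 3′ ends of polyadenylated RNA with 6-base UMIs. The sort left out CD11b+CD45high cells positive for Ly6C or Ly6G. The sources used here do not say how many mice stand behind a library, so the spread between libraries may be partly technical.

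Microglia are the resident macrophages of the brain. In the uninjured brain they carry the fractalkine receptor Cx3cr1 and the purinergic receptor P2ry12, and they express lysosomal and complement genes at high levels. Transposable elements make up a large part of the mouse genome, and fragments of them lie inside many transcripts and unnamed loci. A 3′ read from such a fragment has many near-identical places in the genome, so a count in a row built on it cannot be tied to 1 locus with certainty.

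Many of the rows that were higher in Unknown MG after the removal held repeated sequence. The sequences below show such stretches in 3 rows that remained in the data and in 1 removed row. All are from GENCODE M39 transcripts on GRCm39, 5′ to 3′ on the strand of the row. In the first 3 the capitals mark the longest run that also occurs in the removed row Gm29055, and in the last they mark the run that also occurs in Gm37404.
Gm37404: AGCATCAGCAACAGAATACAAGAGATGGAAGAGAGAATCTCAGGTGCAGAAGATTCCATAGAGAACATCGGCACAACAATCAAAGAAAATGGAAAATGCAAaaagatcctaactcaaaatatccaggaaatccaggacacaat
Gm37746: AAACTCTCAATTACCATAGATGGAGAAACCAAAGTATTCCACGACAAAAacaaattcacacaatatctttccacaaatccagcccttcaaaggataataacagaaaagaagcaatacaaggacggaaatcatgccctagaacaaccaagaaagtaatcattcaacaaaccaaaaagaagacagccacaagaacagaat
Gm42519: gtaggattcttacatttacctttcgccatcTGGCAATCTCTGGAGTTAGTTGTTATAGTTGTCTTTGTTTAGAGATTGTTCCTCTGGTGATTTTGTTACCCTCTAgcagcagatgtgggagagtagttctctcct
Gm29055: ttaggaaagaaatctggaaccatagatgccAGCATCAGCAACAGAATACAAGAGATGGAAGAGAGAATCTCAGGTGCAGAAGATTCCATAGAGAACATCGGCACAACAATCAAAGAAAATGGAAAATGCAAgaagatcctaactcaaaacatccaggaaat

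The Gm37404 stretch (chr3:62030628-62030770, plus strand) is the first 143 of the 359 bases of a locus annotated TEC, the class for transcribed loci that still await experimental proof. All 143 bases also occur in Gm43238, a TEC locus on chromosome 5, and 101 of them in Gm29055. Each 20-base word of the stretch was found at between 4419 and 17781 places on both strands of the genome. Gm37746 (chr3:43910156-43910353, plus strand, TEC) is shown whole at 198 bases, of which the first 49 occur in Gm29055, and its words had a median of 3820 copies. The Gm42519 stretch (chr5:45401203-45401337, minus strand, TEC) holds 75 bases found in Gm29055, and the median of its words was 852 copies. Gm29055 itself (shown at chr1:86703586-86703746, plus strand) is annotated as a long non-coding RNA of 1710 bases on chromosome 1, and Gm37954 as a TEC locus of 2071 bases on the same chromosome. Neither Gm10800 nor Gm21833 was matched to the annotation used here.

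Unknown MG cells were found in 5 of the 6 libraries. There were 16 among 71 microglia of uninjured library 1 and 6 among 84 of uninjured library 2. The PT D7 libraries held 20 among 54 and 13 among 60. PT D1 library 1 held 4 among 71, and PT D1 library 2 held 0 of 76 microglia, which allows a share of up to 3.95% by 3 counts of the total, and of up to 4.74% by the exact binomial interval. In percent, these were 22.5% (95% exact binomial interval 13.5 to 34.0) and 7.14% (2.67 to 14.9) of microglia in the uninjured libraries, 5.63% (1.56 to 13.8) in PT D1 library 1, and 37.0% (24.3 to 51.3) and 21.7% (12.1 to 34.2) at PT D7. The intervals and the upper limit cover counting error only. The uninjured and PT D7 shares overlapped, with a mean difference of 14.5 percentage points (exact permutation test over libraries, two-sided, p = 0.667, n = 2 and 2), and a design of this size cannot give a p below 0.333. Homeostatic MG cells numbered 54, 70, 18 and 32 in the uninjured and PT D7 libraries and 0 and 1 at PT D1, so the comparison of the subtypes rests on the 4 libraries without PT D1.

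The removed rows were abundant in every cell type, and most of their counts were Gm10800. Gm10800 alone took 23.1% of all UMIs of the series and was counted in all 658 cells. As a share of all UMIs, Gm10800 reached 44.8% in Unknown MG, 32.3% in Activated MG, 25.3% in Homeostatic MG and 9.47% in Activated B Cells, the stem cell subtype with the lowest share. Gm29055 took 1.68% in Unknown MG and 0.611% in Homeostatic MG, Gm21833 1.28% and 0.447%, and Gm37954 0.715% and 0.271%. The label's named rows were thus highest in these cells. These rows, however, are shared by all subtypes and gave the subcluster its name, so the values are a description and not a finding.

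Per cell, the 4 rows together took between 28.1% and 70.7% of the UMIs of an Unknown MG cell, with a median of 45.5%. In Homeostatic MG the lowest cell was at 1.56%, the median at 26.3% and the highest at 51.1%. The ranges overlapped widely: 80 of the 175 Homeostatic MG cells lay at or above the lowest Unknown MG cell, and 41 of the 59 Unknown MG cells lay at or below the highest Homeostatic MG cell. Of the microglia of all other subtypes 33 cells, among them 22 Activated MG and 7 Homeostatic MG, had a share at or above the Unknown MG median. The share is therefore a continuous measure with no gap between the subtypes. Summed per library, it was 47.4% and 40.4% in the uninjured Unknown MG and 53.3% and 45.2% in the PT D7 Unknown MG, against 24.7%, 28.2%, 28.2% and 26.4% in Homeostatic MG (46.6% ± 5.38 against 26.9% ± 1.71, SD, n = 4 libraries). The uninjured and PT D7 values of Unknown MG overlapped.

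**Figure D1:**
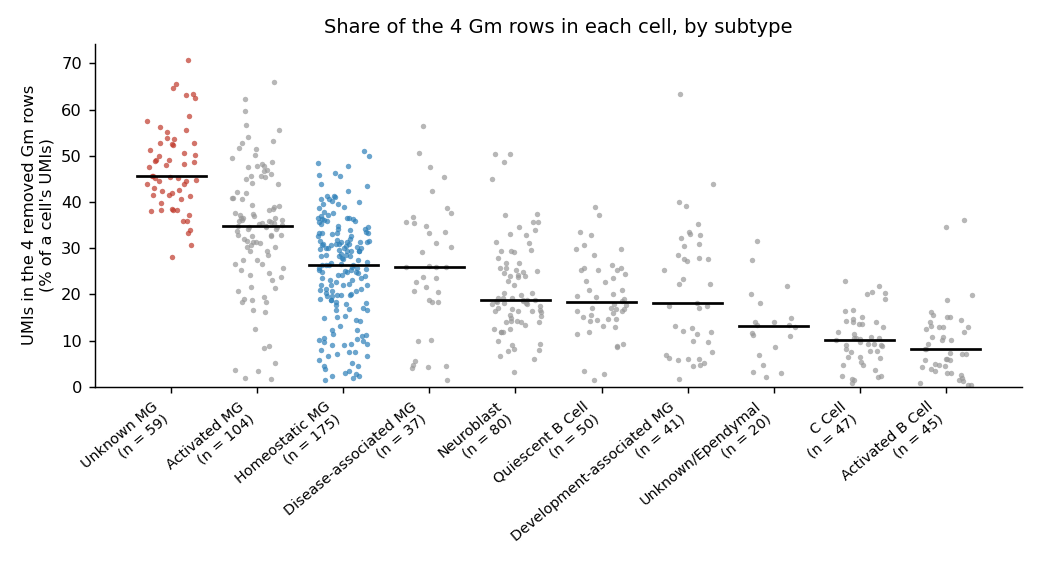
UMIs in Gm10800, Gm21833, Gm29055 and Gm37954 as a percent of each cell's UMIs (vertical axis), with 1 point per cell and a bar at the median of each deposited subtype. Unknown MG (red, n = 59) had the highest median, 45.5%, and its points overlap those of Homeostatic MG (blue, median 26.3%) and Activated MG (median 34.9%).

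With the 4 rows removed, the Unknown MG sums held 41345 and 21704 UMIs in the uninjured libraries and 58083 and 42346 at PT D7, and the Homeostatic MG sums 210556, 265928, 44818 and 90385. A single UMI thus stood for between 17.2 and 46.1 CPM in the Unknown MG sums, which limits what can be said of weakly expressed genes. Differences are given as log2(CPM + 20) of Unknown MG minus Homeostatic MG within a library, averaged over the 4 libraries with their SD, for the 1491 genes with a mean of at least 100 CPM over the 8 sums. A gene can pass that mean through the subtype in which it is high. A gene was counted as lower or higher where the mean difference was at least 2-fold and all 4 libraries pointed the same way. No test was made, since the subtypes were drawn from the same counts.

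By this rule 67 genes (4.49% of those described) were lower and 91 (6.1%) higher in Unknown MG, and 1119 genes (75.1%) had a mean below 0. The median of all 1491 genes was −0.34, and it was below 0 in each library, from −0.34 in PT D7 library 1 to −0.15 in uninjured library 2. Group values are read against this median. Scaling by TMM moved the median to −0.53 and the counts to 140 lower and 69 higher. Centring each library on its own median gave 16 lower and 121 higher, so higher genes made up 57.6% of the calls as described, 33.0% with TMM scaling and 88.3% after centring.

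The higher genes were mostly rows without a working gene name. Of the 91, 62 carried a Gm number, a clone name (RP23 or RP24) or a name ending in Rik, 49.2% of the 126 such rows described. The other 29 were 2.12% of the 1365 rows with other names, which include serial names of other forms such as 9930111J21Rik1 (0.96, not counted), AI838599 and BC051077 (both higher). The median difference was 1.06 for the first kind and −0.37 for the second. Gm26870 was the most abundant of all remaining rows, at 71157 CPM in uninjured library 1 and 52387 in uninjured library 2, and at 116196 and 69688 CPM in the PT D7 libraries. In Homeostatic MG Gm26870 was at 24421, 31967, 30858 and 27991 CPM, so the groups did not overlap (1.37 ± 0.50 on the log2 scale, SD, n = 4), as for 5.97% of all genes described in this direction. Gm42519 was at 6990, 4930, 4407 and 3920 CPM in Unknown MG and at 1453, 1188, 826 and 697 CPM in Homeostatic MG (2.28 ± 0.19). Gm26905 stood at 5418, 3087, 3684 and 3235 CPM against 1002, 839, 803 and 620 CPM (2.20 ± 0.25). Every Unknown MG library lay above every Homeostatic MG library for these 3 rows.

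A second list of Gm rows was drawn up as other predicted gene rows in satellite-like repeats, and the sequence of those that passed was not examined here. Of its rows, 5 passed the minimum (Gm26870, Gm10717, Gm10719, Gm10715 and Gm21738), and 5 of 5 were higher, beside 6.1% of all genes and 49.2% of the rows with Gm, clone and Rik names. Their median was 1.56 ± 0.51, beside −0.34 for all genes, and the list was chosen with earlier values known. Gm10717, the most abundant after Gm26870, was at 30693, 29211, 22468 and 46356 CPM against 10553, 15752, 7765 and 9780 CPM. Together, the rows with Gm, clone and Rik names took 31.6%, 23.7%, 33.4% and 28.0% of the remaining UMIs of Unknown MG in the 4 libraries, and 12.3%, 13.4%, 12.4% and 11.9% of those of Homeostatic MG. By subtype the share was 30.2% in Unknown MG, 15.1% in Activated MG, 13.5% in Disease-associated MG and 6.74% to 10.9% in the NSPC subtypes. At PT D1 the 4 Unknown MG cells had Gm42519 at 5239 CPM (56 UMIs), and the Activated MG of the same library had it at 1638 CPM.

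**Figure D2:**
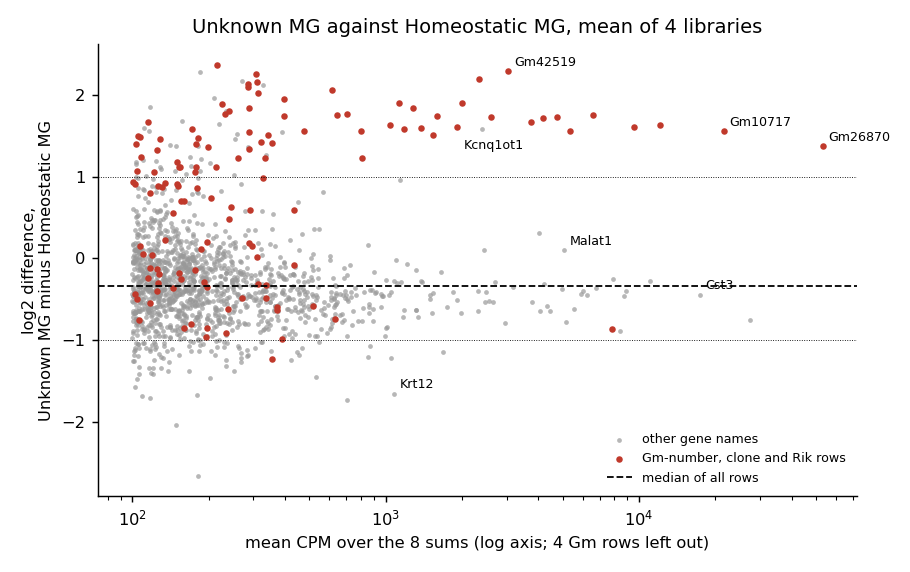
Difference between Unknown MG and Homeostatic MG (log2, mean of 4 libraries, vertical axis) against mean CPM over the 8 sums (log axis), with 1 point per gene. Rows with Gm, clone or Rik names (red) make up 62 of the 91 genes counted as higher, dotted lines mark a 2-fold difference, and the dashed line marks the median of all genes at −0.34.

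A smaller group of named genes was higher as well. Kcnq1ot1, a long non-coding RNA antisense to the potassium channel gene Kcnq1 that acts in genomic imprinting, was at 5079 and 2488 CPM in the uninjured Unknown MG and 4700 and 2338 CPM at PT D7. In Homeostatic MG it was at 1140, 1121, 1473 and 885 CPM (1.58 ± 0.43). Usp29, a ubiquitin protease gene of an imprinted region, was at 629, 276, 482 and 449 CPM against 66.5, 105, 66.9 and 99.6 CPM (2.16 ± 0.72). Stxbp6, which encodes a syntaxin-binding protein, was at 435, 230, 241 and 378 CPM against 47.5, 71.4, 44.6 and 33.2 CPM (2.28 ± 0.68). Caps2 was at 822, 553, 379 and 449 CPM against 128, 124, 89.2 and 88.5 CPM (2.12 ± 0.28). For all 4 genes the lowest Unknown MG library lay above the highest Homeostatic MG library, as for 5.97% of all genes described. Other named genes counted as higher were weak, with a median of 181 CPM for the 29, among them Pou1f1, which encodes a pituitary transcription factor (31 UMIs over the 4 Unknown MG sums), and Nkx2-1, which encodes a forebrain and thyroid transcription factor (29 UMIs). Malat1, a nuclear long non-coding RNA, was at 7329, 7372, 3202 and 3094 CPM against 7290, 6062, 3347 and 2722 CPM (0.10 ± 0.16), and its values in the subtypes overlapped.

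The sequences of the rows were examined next. The rows counted as higher were drawn from the same counts as the subtypes, and rows with shared sequence may collect the same reads. The values that follow are thus a description and no independent support. GENCODE M39 held 1408 of the 1491 rows, including 71 of the 91 higher rows. The abundant higher rows Gm26870, Gm10717, Gm10719, Gm10715, Gm21738 and Gm26905 were not matched and are in none of the values that follow. For each row's longest transcript, the share of its 20-base words found at 100 or more places on both strands of GRCm39 was taken as its repeated share. The median repeated share was 10.1% in the 71 higher rows, 0.558% in the 67 lower rows and 0.715% in the 1270 others. Of the 756 rows with a repeated share under 1%, 7 were higher (0.926%). The share of higher rows was 4.74% of 570 rows between 1 and 10%, 23.3% of 43 rows between 10 and 25%, 64.7% of 17 rows between 25 and 50%, and 72.7% of 22 rows at 50% or more. Named genes followed the same order at a lower level: the 28 matched higher rows with other names had a median of 3.40%, and the 1228 such rows that were neither had 0.696%.

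The kind of name alone did not separate these rows. Among rows with Gm, clone or Rik names, the 43 matched higher rows had a median repeated share of 38.0%, and the 42 that were neither higher nor lower had 5.05%. Gm42519 had 85.5% of its words repeated and Gm37746 all of them. Gm37746 was counted at a mean of 4178 CPM (1.71 on the log2 scale) although it is only 198 bases long. A word of 20 bases shared with the removed rows Gm29055 or Gm37954 was found in 21 of the 71 higher rows, in 4 of the 1270 others and in 0 of the 67 lower rows. Within the Gm, clone and Rik names it was found in 20 of 43 higher rows and in 0 of 42 others, but it was also present in 9930111J21Rik1, which falls outside that class of names and was neither higher nor lower. A run of 10 or more A, by contrast, was present in 31.0% of the higher rows and in 35.0% of all matched rows. These are descriptions of sequence content, and which locus the reads came from was not tested.

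**Figure D3:**
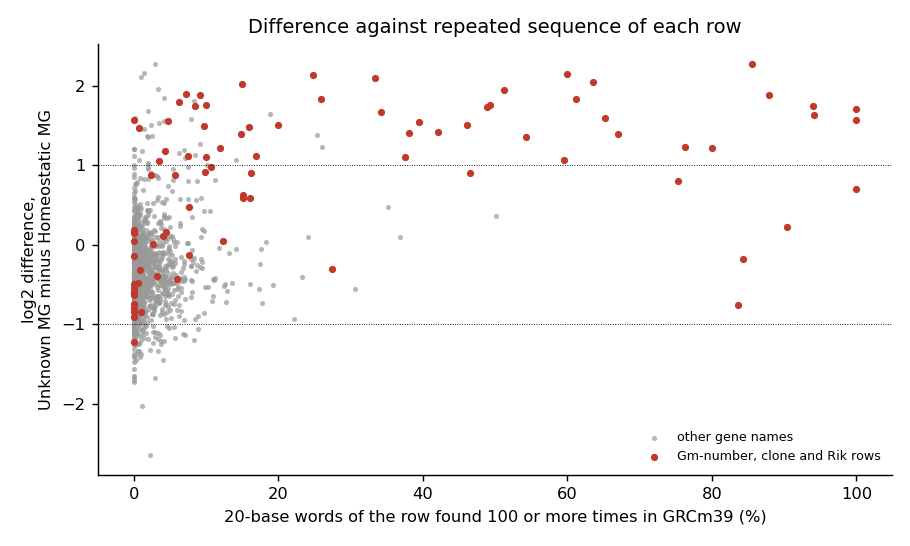
Difference between Unknown MG and Homeostatic MG (log2, vertical axis) against the percent of each row's 20-base words found 100 or more times in GRCm39 (horizontal axis), for the 1408 rows matched to the annotation. Of the 22 rows at 50% or more, 16 were counted as higher, and of the 756 rows under 1%, 7 were.

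The genes that define microglia were present in Unknown MG. Of the 32 genes on the list of homeostatic microglia, 26 passed the minimum, 1 was lower and 0 were higher, with a median of −0.49 ± 0.19 (SD of the 4 library medians), beside 4.49% lower and a median of −0.34 among all genes. Cx3cr1 was at 2612, 2857, 1722 and 1582 CPM in Unknown MG and 3130, 3298, 3280 and 2677 CPM in Homeostatic MG (−0.53 ± 0.36), lower in each library. P2ry12 stood at 1946 CPM over all Unknown MG cells, 2674 CPM in Homeostatic MG, 512 CPM in Activated MG and 818 CPM in Disease-associated MG. Cx3cr1 was at 2010, 3127, 760 and 1631 CPM in the same order, and at 45.2 to 117 CPM in the NSPC subtypes. These levels are pooled over libraries, and the subtypes come from the conditions in different proportions, so no order is read from them.

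The myeloid list (30 genes passing of 32, 1 lower, beside 4.49% of all genes) had a median of −0.43 ± 0.15. Cst3, a secreted protease inhibitor and the most abundant of the list, was at 15697, 13868, 17423 and 12044 CPM against 21177, 19005, 24745 and 15600 CPM (−0.44 ± 0.06). Csf1r, the receptor that microglia need for survival, was at −0.53 ± 0.28. The complement list had 6 of 16 measured genes passing and none counted as lower or higher (median −0.51 ± 0.23), with C1qa at −0.44 ± 0.06. The lysosomal list (35 genes passing of 48, 1 lower, none higher, again beside 4.49% and 6.1% of all genes) had a median of −0.40 ± 0.21, with Ctsd at −0.40 ± 0.32.

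The lists of activation genes are given next, beside the median of −0.34, the 4.49% lower and the 6.1% higher of all genes. The list of disease-associated microglia had 12 genes passing of 29 measured, 1 lower (Lgals3bp) and none higher, and a median of −0.34 ± 0.23. Apoe, the lipid carrier that marks this state, was at 1935, 2903, 2858 and 2102 CPM against 1734, 1891, 1785 and 4260 CPM (0.11 ± 0.78) and was higher in 3 of the 4 libraries. The day 1 activation list had 6 of 19 genes passing and none counted (median −0.39 ± 0.39). Immediate early genes, which respond within minutes to stimulation and to tissue dissociation, had 13 of 30 passing, 1 lower (Nfkbia) and none higher (median −0.39 ± 0.28), and Jun was at −0.24 ± 0.42. Lgals3bp and Nfkbia were less than 2-fold lower after each library was centred on its own median. Chemokine and cytokine genes had 5 of 21 passing and none counted (−0.40 ± 0.20). Of the interferon and MHC class I list, 4 of 26 passed and none was counted (median −0.11 ± 0.32), with B2m at −0.53 ± 0.33.

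Ribosomal and translation genes had the lowest medians among the 17 lists plotted, which do not include the surface epithelium genes described further on. All 65 of the 80 cytosolic ribosomal protein genes that passed had a mean below 0, and 61 lay below the median of all genes. Their median was −0.65 ± 0.20, and 7 of the 65 were counted as lower, beside 4.49% of all genes. Centring each library on its own median left these 7 genes less than 2-fold lower. Rpl13 was at 242, 230, 310 and 283 CPM in Unknown MG and 750, 463, 781 and 564 CPM in Homeostatic MG (−1.18 ± 0.30). Rpl26 was at 218, 230, 413 and 307 CPM against 622, 478, 803 and 653 CPM (−1.10 ± 0.23), and Rpl23 at −1.07 ± 0.48. In these 3 genes the subtypes did not overlap, as for 11.4% of all genes in this direction. The 19 translation factors that passed had a median of −0.59 ± 0.31, with 1 lower (Eef1b2), and Eef1a1 was at −0.79 ± 0.63. After the same centring Eef1b2 was less than 2-fold lower.

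The actin cytoskeleton list had 25 genes passing of 31, 3 lower (Coro1a, Capzb and Tln1, beside 4.49% of all genes) and none higher, with a median of −0.44 ± 0.05. These 3 genes were also less than 2-fold lower after each library was centred on its own median. Actb was at 3652, 4884, 2927 and 3802 CPM against 7024, 6712, 6181 and 5897 CPM (−0.78 ± 0.28). Its values did not overlap, as for 11.4% of all genes in this direction. Chaperones (16 passing of 27) had a median of −0.44 ± 0.25, nuclear genes of oxidative phosphorylation (17 of 70) −0.39 ± 0.48, and stress and apoptosis genes (9 of 28) −0.24 ± 0.22. None of these 3 lists had a gene counted as lower or higher. The 12 mitochondrially encoded mRNAs that passed had a median of −0.37 ± 0.18 and none was counted. The mitochondrial ribosomal RNAs mt-Rnr1 and mt-Rnr2 were at −0.89 ± 0.42 and −0.75 ± 0.25.

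**Figure D4:**
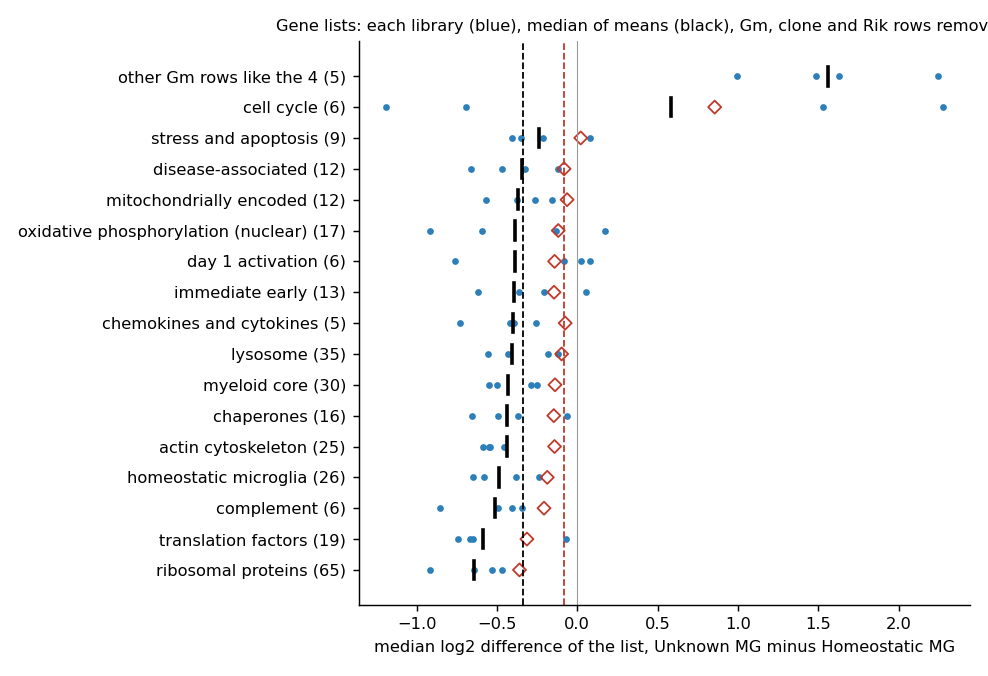
Median log2 difference between Unknown MG and Homeostatic MG for 17 lists with at least 5 genes passing the minimum (number in brackets), without the surface epithelium genes: each library (blue), the median over genes of the mean differences (black bar), and the same after removal of every Gm, clone and Rik row (red diamond). Among the lists plotted ribosomal proteins lay lowest at −0.65, and the dashed lines mark the median of all genes before (black, −0.34) and after (red, −0.08) that removal.

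When every row with a Gm number, a clone name or a name ending in Rik was removed, the median of all genes and those of the lists below 0 moved upwards. The median of all genes was then −0.08, that of the homeostatic list −0.19, of the myeloid list −0.14, of the lysosomal list −0.10 and of the mitochondrially encoded list −0.06. Ribosomal proteins stayed lower at −0.36 and translation factors at −0.31, or 0.28 and 0.23 below the median of all genes. Of the 1808 genes that then reached 100 CPM, 25 were lower and 71 higher, and these held all 29 rows with other names that had been higher before.

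Clustering the 416 microglia again gave a matching picture. With all rows, 1 of 5 clusters was mostly Unknown MG and held 45 of the 59 cells (76.3%). Without the 4 Gm rows a cluster of 54 cells held 48 of them (81.4%, 95% exact interval 69.1 to 90.3), with 4 Homeostatic MG and 2 Activated MG cells. By library these were 14 of 16 and 3 of 6 cells in the uninjured libraries, 20 of 20 and 10 of 13 at PT D7 and 1 of 4 in PT D1 library 1, so the libraries differed and the interval, which covers counting error only, treats the cells as independent. Without any Gm, clone or Rik row no cluster was mostly Unknown MG. Of the 59 cells, 52 then fell in a cluster of 174 cells with 121 Homeostatic MG cells, 3 in a cluster of Activated MG, 3 in a second cluster of Homeostatic MG and 1 with Disease-associated MG. The deposited subtypes were drawn from the same counts, so this is a description of where the cells went.

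**Figure D5:**
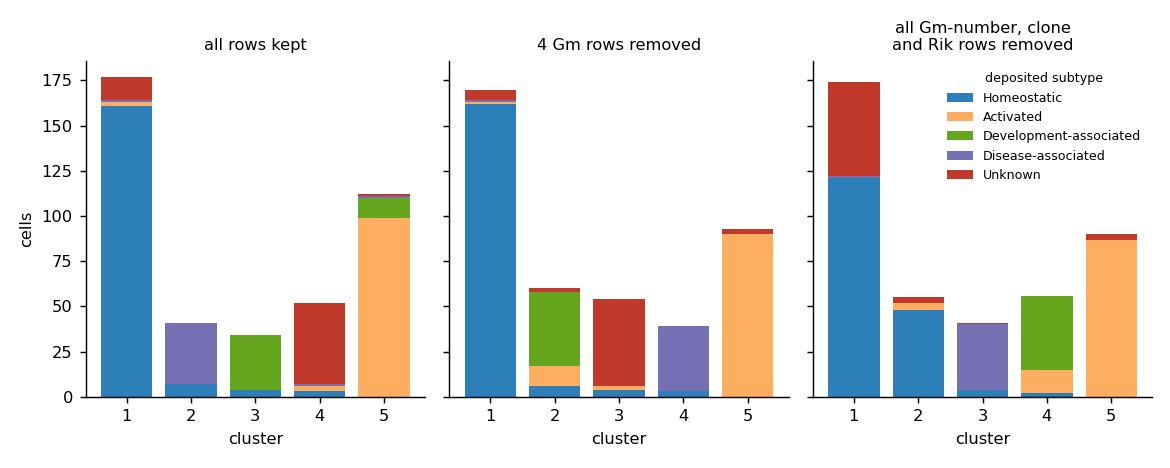
Cells (vertical axis) in each of the 5 clusters of the 416 microglia, coloured by deposited subtype, with all rows kept (left), the 4 Gm rows removed (middle) and every Gm, clone and Rik row removed (right). Unknown MG cells (red) form a cluster of their own in the first 2 panels, and 52 of 59 join a Homeostatic MG cluster in the last.

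The mitochondrial share and the number of genes per cell were compared on the UMIs that remained. These still held the other Gm, clone and Rik rows, at 30.2% in Unknown MG and 12.7% in Homeostatic MG over all libraries. Values of the 2 measures without those rows are not given here. With those rows removed, the mitochondrially encoded list had a median of −0.06, beside −0.08 for all genes. The median mitochondrial share of the remaining UMIs was 7.28%, 8.27%, 6.62% and 8.47% in Unknown MG and 11.1%, 10.6%, 7.98% and 11.8% in Homeostatic MG, lower in Unknown MG in all 4 libraries (−2.73 ± 1.10 percentage points, SD, n = 4). Thinned to 1000 of the remaining UMIs per cell, the median number of genes was 610.5, 638.5, 607 and 624.5 in Unknown MG and 638.5, 646, 662 and 644 in Homeostatic MG (−27.5 ± 20.2 genes). Thinning left out 3 Unknown MG and 5 Homeostatic MG cells. Before thinning the medians were 1360.5, 1654, 1300.5 and 1273 genes against 1693, 1918.5, 1339.5 and 1349 genes.

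The lower genes included a group of surface epithelium genes. Krt12, a keratin of the corneal epithelium, was at 556, 415, 551 and 496 CPM in Unknown MG and 1273, 2091, 1272 and 2014 CPM in Homeostatic MG (−1.65 ± 0.57). Krt5, a keratin of basal epithelium, and Aldh3a1, a corneal dehydrogenase, were at −1.45 ± 0.58 and −1.72 ± 0.74. Of 15 such genes, a list written after their values had been seen, 9 passed the minimum and all 9 were lower, beside 4.49% of all genes, and nothing is read from this count. The list also holds Elf3, Evpl, Lad1 and Mal2, which the study names for another microglial subcluster. None of them passed the minimum. The list summed to 2177, 2626, 2324 and 1842 CPM in Unknown MG, 5239, 7908, 4596 and 8453 CPM in Homeostatic MG and 74216 CPM in the Development-associated MG of PT D1 library 2, and Krt12 was its most abundant gene. Which cells these transcripts came from was not tested.

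Krt12, Krt5 and Aldh3a1 of this list also moved with the numbering of the cells. A cell's name ends in a number from 1 to 192, and the sources used here do not say how it maps to the plate. Microglia lay at remainders 1 to 4 of the number after division by 8 in 407 of 416 cells, and 221 of 222 NSPCs at the others. Among the 9 microglia at the others were 2 of the 59 Unknown MG and 2 of the 175 Homeostatic MG cells. Of these Unknown MG cells 1 was in uninjured library 2 and 1 in PT D7 library 2. Of the Unknown MG cells 31 of 59 (52.5%) had a remainder of 1, against 34 of 175 Homeostatic MG cells (19.4%). By library the counts were 11 of 16, 4 of 6, 10 of 20 and 5 of 13 against 9 of 54, 14 of 70, 7 of 18 and 4 of 32, higher in all 4 libraries by a mean of 34.0 ± 18.9 percentage points (exact sign-flip permutation test, two-sided, p = 0.125, n = 4, the smallest it can give). This pattern was noticed in the data. Among all microglia of a library Krt12 was lower at remainder 1 than at 2 to 4 in 6 of 6 libraries, for example 225 against 1426 CPM in uninjured library 1 and 1899 against 11748 CPM in PT D1 library 2. The median share of the 4 Gm rows was higher at remainder 1 in 4 of 6 libraries, as in uninjured library 1 (35.8% against 25.8%). It was slightly lower in PT D1 library 1 (34.5% against 34.8%) and PT D7 library 1 (36.5% against 37.0%). These medians are over all microglia, whose mix of subtypes differs with the remainder. Whether the share itself moves with the numbering cannot be told from them.

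Restricted to cells with a remainder of 1, there were 90 higher genes, 62 of them among the original 91, and 116 lower genes, 23 of them among the original 67. Gm42519 was at 6492, 6454, 4249 and 4618 CPM in the Unknown MG of this position and at 1747, 1149, 759 and 1011 CPM in the Homeostatic MG. Krt12 turned to 1.06 and Krt5 to 1.33 on the log2 scale, and Aldh3a1 was at −0.27, with 4 to 14 cells in a sum. Krt12 was higher in 3 of these 4 libraries, and lower in uninjured library 2 (359 against 520 CPM). Krt5 was likewise higher in 3 of 4, and lower in uninjured library 1 (143 against 204 CPM), with 0 CPM in the Homeostatic MG of PT D7 library 2. At remainders 2 to 4 Krt12 was at 891, 1531, 907 and 628 CPM in Unknown MG (1531 CPM from 1 cell) and at 1504, 2338, 2123 and 2183 CPM in Homeostatic MG. The direction of the mean of Krt12 and Krt5 thus depended on which cell numbers were used. The Unknown MG cells carried 41 different numbers, 15 of them in at least 2 libraries, and 164 of the 180 numbers in use occurred in more than 1 library.

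Few genes of other cells passed the minimum, but Ttr was abundant in the uninjured libraries. Of 20 NSPC genes 4 passed and none was counted. Their sum was at 798, 4193, 517 and 1582 CPM in Unknown MG and 755, 1579, 692 and 1604 CPM in Homeostatic MG, and Slc1a3 was the most abundant over all sums. In uninjured library 2, whose Unknown MG sum held 6 cells, Sox11 was at 1567 against 113 CPM, Tubb3 at 553 against 90.2 CPM and Slc1a3 at 276 against 425 CPM. Of the 22 measured cell cycle genes 6 passed and none was counted, with a median of 0.58 that ranged widely between libraries (SD 1.68). In uninjured library 2 a single Unknown MG cell held 123 of the 144 cell cycle UMIs, and in PT D7 library 2 a single cell held 104 of 144. Without the highest cell the sums were 1268 and 1101 CPM, beside 1014 and 998 CPM in Homeostatic MG without its highest cell. Uninjured library 2 and PT D7 library 2 each also had 1 Unknown MG cell at the cell numbers of the NSPCs. Whether that was the cell with the highest count was not tested. Of the 15 measured leukocyte genes none passed, and their sum was at 121, 184, 103 and 23.6 CPM against 66.5, 67.7, 89.2 and 66.4 CPM. Of the 12 genes of border-associated macrophages 2 passed and none was counted, with sums of 1064, 369, 792 and 70.8 CPM against 722, 910, 201 and 531 CPM. Cbr2 was the most abundant over all sums, but in Unknown MG its mean was below that of Stab1 (76.0 against 173 CPM). Ttr, the transthyretin gene made by choroid plexus, was at 5321, 5160, 448 and 70.8 CPM in Unknown MG and 15934, 5152, 22.3 and 122 CPM in Homeostatic MG, and so was high in the uninjured libraries of both subtypes. The oligodendrocyte and neuron list had 2 genes passing, of which 1 was lower (beside 4.49% of all genes), and Mbp was at −0.95 ± 0.44; the part of free RNA in these values was not tested.

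The last comparison asked whether Unknown MG cells themselves differed between PT D7 and uninjured mice. In edgeR's quasi-likelihood test on the sums, 0 of 516 genes were higher (0.0% called) and 0 lower (0.0% called) at an adjusted p under 0.05 (Benjamini-Hochberg), with 16 genes at an unadjusted p under 0.05. DESeq2 called 1 gene, Ttr. Ttr had the smallest adjusted p, with a difference of −4.28 ± 0.69 (log2, SE; adjusted p = 0.167 in edgeR) and the values just given. The choroid plexus and ependyma list, of which Ttr is the most abundant gene, summed to 5877, 5713, 637 and 94.5 CPM in Unknown MG. Next came Enpp2, a lysophospholipase gene that choroid plexus also expresses, at 484, 553, 51.7 and 0 CPM (−4.00 ± 0.77, adjusted p = 0.249 in edgeR). Malat1 was at −1.23 ± 0.42 (adjusted p = 0.999 in edgeR).

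The difference between the subtypes was also compared between the conditions, with library as a block. In edgeR 0 of 945 genes passed (0.0% called in either direction, 30 at an unadjusted p under 0.05), and DESeq2 called none, with 3 at an unadjusted p under 0.05. The smallest adjusted p was again that of Ttr, at 2.32 ± 0.68 (adjusted p = 0.820 in edgeR).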

How the data were processed

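SVZ microglia and NSPCs of 6 libraries were analysed. The authors demultiplexed the reads with bcl2fastq 2.17.1.14 and aligned them to GRCm39 (submitters' processing notes); which aligner, counter and annotation they used is not given in the sources used here. Their putative doublets (by total UMIs) and cells with few UMIs or a high mitochondrial share had been discarded, and no doublet caller was run here. The deposited values are estimated counts: all 2267 values above 100 are ones that a correction for repeated UMIs among the 4096 possible can give after rounding, so they were used as whole numbers. This matters for Gm10800, where the Unknown MG median of 2083 stands for 1633 distinct UMIs and the highest value, 13412, for 3941. Class and subtype are the authors' annotation, made in Seurat, and 15 other columns per cell were not used.

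UMIs were summed per library and subtype where each subtype had at least 5 cells. Libraries held 294984 to 468186 microglial UMIs. Sums were tested with edgeR 4.0.16 (TMM, filterByExpr, glmQLFit and glmQLFTest) and DESeq2 1.42.0, after checks on simulated data. Of 200 genes changed 2-fold in simulation, edgeR recovered 0 in either comparison of PT D7 with uninjured. Of 200 changed 4-fold it recovered 138 within Unknown MG and 92 for the change of the subtype difference. The simulation gave every gene the same spread between libraries, set in advance. Where the real spread is larger, fewer changes would be recovered. Microglia were clustered in Seurat 5.3.0 (SCTransform, 2000 variable genes, 7 principal components, resolution 0.4). Members and gene lists were chosen with earlier results of these data known. Of each list the 4 most abundant genes and those counted were eligible to be named, as were the 12 largest differences in each direction and the genes called in a test; some other genes were named after their values were seen (P2ry12, Pou1f1, Nkx2-1, Gm37404, Gm43238, Gm37746, 9930111J21Rik1, AI838599, BC051077 and the epithelial list). Which PT D7 library is 1 and which 2 was read from the last number of the cell-name start, and the group does not depend on it. Values of some single genes are not reported here.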

Additional observations from a re-analysis of the deposited data

Results flagged for a closer look

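Srgn, which encodes the proteoglycan serglycin and is a gene of the day 1 activation list, had differences between Unknown MG and Homeostatic MG that pointed one way in the 2 uninjured libraries and the other way in the 2 PT D7 libraries. Its means were −0.97 and 0.20 on the log2 scale, a change of 1.16. Srgn was at 169 and 92.1 CPM in the uninjured Unknown MG and 293 and 283 CPM at PT D7, and at 195, 357, 223 and 277 CPM in Homeostatic MG. The change was 1.13 ± 0.68 in edgeR's quasi-likelihood test (log2, SE; adjusted p = 0.999), so it did not pass.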

How the results depend on the processing

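The 67 lower genes depended on the settings more than the 91 higher ones. Lower genes numbered 33 with a pseudocount of 50 CPM, 140 with TMM, 209 with the 4 Gm rows in the totals, 33 without any Gm-number row, 103 without mitochondrial rows, 152 after thinning to 1000 UMIs, 249 at 1.5-fold, and 157, 33 and 411 at a minimum of 50, 200 and no CPM. Alternatives chosen after seeing the data gave 25 without Gm, clone and Rik rows, 116 at remainder 1 and 16 after centring. Higher genes numbered 48 with the 4 rows in the totals, and 138, 57 and 223 at the 3 minimums. Without 1 library, 87 to 106 genes were lower (106 without uninjured library 2) and 95 to 109 higher. Of the genes reported here, Krt12 (1.06), Krt5 (1.33) and Calml3 (0.61) reversed at remainder 1; the cause was not tested. Of 17 lists, 14 had a median below that of all genes, and 10 to 13 without 1 library. The share of the 4 rows was 38.5% in distinct UMIs, and the gene number at 1000 UMIs differed by −142 with the 4 rows kept. The share in a cluster of their own was 0 without Gm, clone and Rik rows. For PT D7 against uninjured, 1 gene (Ttr) passed with DESeq2 and without TMM, 3 (Enpp2, Sox11 and Ttr) without a filter, and 1 to 7 without 1 library, with Ttr among them each time and Gm26870 without PT D7 library 2; there the lone library is assumed to vary like the others. For the change of the subtype difference, 0 to 1 genes passed without 1 library (Ttr without PT D7 library 2 and without uninjured library 2). The library number as a replicate block gave 0 calls; same-numbered libraries deviated together (r = 0.478 across 516 genes), but they share only a number in the labels.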
